A study of Mus musculus with 16 samples.

Results

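The Hox genes described here are the members of the 4 mouse Hox clusters that the arrays measured with a probe set naming exactly 1 gene. They were chosen by symbol (Hoxa, Hoxb, Hoxc or Hoxd followed by a number), not by their values, and came to 33 genes among 18193 genes measured in that way. Cluster A held 9 of them, cluster B 9, cluster C 7 and cluster D 8. The RefSeq gene table lists 39 such genes, and those outside the 33 were not analysed here. Of the 33 genes, 11 had more than 1 probe set, and for these the brightest on average across the 16 arrays was used.

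The arrays came from 7 groups, all wild type mice or cells on a C57Bl6 background. Haematopoietic stem cells (HSC) were sorted from bone marrow of male steady-state mice, young at 3 to 4 months (n = 3) or aged at 21 to 24 months (n = 3). Transplanted HSC were sorted from recipients of young marrow (n = 2) or of aged marrow (n = 2), with no age given for the recipients. Induced pluripotent stem cells (iPSC) of young (n = 2) or aged (n = 2) haematopoietic origin and embryonic stem cells (ESC; n = 2) were cultured on mouse embryonic fibroblast feeders. The 2 ESC arrays came from lines of different suppliers, Open Biosystems and Primogenix. HSC and iPSC arrays are labelled as biological replicates, but whether 2 iPSC arrays of a group are separate clones is not stated. A p-value there rests on the spread between arrays within groups, which need not be a spread between clones. That spread is pooled over every group in the fit, the 2 ESC lines included.

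Hox genes encode homeodomain transcription factors, and their order along each cluster follows the order in which they are expressed along the embryo's head-to-tail axis. Genes with the same number in different clusters are paralogues, descended from a common ancestral gene. In blood, genes of clusters A and B are known to be expressed in stem and progenitor cells and to fall as those cells mature, while in ESC the clusters are largely held silent by Polycomb proteins. Proteins of the MLL complex, encoded in part by Kmt2a, maintain Hox transcription, and the TALE-class proteins Meis and Pbx bind DNA together with Hox proteins.

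The labels were checked against marker genes. Of 8 HSC markers measured, 8 lay above the 25th percentile of all genes on every HSC array, with a summed intensity of 23650 to 28240 in steady-state HSC, 8154 to 9199 in transplanted HSC and 571.4 to 720.5 in iPSC and ESC. Of 10 pluripotency markers, 10 lay above that percentile on every iPSC and ESC array, with sums of 23110 to 25490 against 230.6 to 777.9 in HSC. The transplanted arrays stood apart from the other HSC arrays. Their median log2 intensity over genes was 6.02 to 6.13, against 6.44 to 6.57 on steady-state arrays. The 3′ probe set of the actin control exceeded its 5′ probe set by 1.98 to 2.25 on the log2 scale in steady-state HSC and by 1.97 to 2.69 in iPSC and ESC. In transplanted HSC the same difference was -0.26 to -0.05. This difference was not read as a change of actin, and Hox genes called from the transplanted arrays are given below with their other probe sets, where they have any.

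Promoter windows are shown for 4 genes on which the comparisons below turn: Hoxa3, which was higher in transplanted HSC, Hoxa5, which was lower there and in iPSC, Hoxa9, whose chosen probe set was lower in both, and Hoxb4, which was higher in transplanted HSC and lower in iPSC. Each is the 250 bases before the annotated start, 5′ to 3′ on the gene's strand, from RefSeq on GRCm38.p6. Hoxa3 lies at chr6:52213068-52213317 on the minus strand, Hoxa5 at chr6:52204588-52204837 on the minus strand, Hoxa9 at chr6:52227371-52227620 on the minus strand and Hoxb4 at chr11:96318017-96318266 on the plus strand. Capitals mark matches, on either strand, to the CCAAT box, the TATA box, the E-box CACGTG or the GC box, each spelled out below; no match overlaps another in these windows.
Hoxa3: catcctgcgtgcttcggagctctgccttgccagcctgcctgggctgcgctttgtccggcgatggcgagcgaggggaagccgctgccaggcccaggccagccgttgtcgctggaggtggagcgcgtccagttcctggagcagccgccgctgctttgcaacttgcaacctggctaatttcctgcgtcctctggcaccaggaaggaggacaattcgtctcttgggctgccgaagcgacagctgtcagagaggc
Hoxa5: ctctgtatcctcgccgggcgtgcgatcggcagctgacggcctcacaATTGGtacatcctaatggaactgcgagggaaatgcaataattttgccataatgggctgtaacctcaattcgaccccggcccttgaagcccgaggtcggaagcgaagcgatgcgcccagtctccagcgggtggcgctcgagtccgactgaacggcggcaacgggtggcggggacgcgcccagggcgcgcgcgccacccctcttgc
Hoxa9: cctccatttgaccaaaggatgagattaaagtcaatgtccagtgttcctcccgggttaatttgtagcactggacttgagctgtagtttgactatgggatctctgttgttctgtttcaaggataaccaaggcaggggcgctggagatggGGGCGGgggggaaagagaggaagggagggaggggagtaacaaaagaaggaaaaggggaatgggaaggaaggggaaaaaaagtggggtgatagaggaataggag
Hoxb4: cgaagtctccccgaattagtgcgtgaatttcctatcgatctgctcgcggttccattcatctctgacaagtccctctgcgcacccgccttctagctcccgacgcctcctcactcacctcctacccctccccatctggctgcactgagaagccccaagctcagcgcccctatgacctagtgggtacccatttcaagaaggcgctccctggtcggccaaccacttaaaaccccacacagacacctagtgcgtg

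RefSeq promoter windows were matched by symbol for 19 of the 33 Hox genes, 21 windows in all. The CCAAT box (CCAAT) was present in 11 of the 21 (52.4%), against 33.8% of 32851 windows of all genes. The TATA box (TATAAA) was present in 2 Hox windows (9.52%, against 12.4% of all). The E-box (CACGTG) was present in 4 (19%, against 6.02%), and the GC box (GGGCGG) in 8 (38.1%, against 32.7%). The Hox windows held a median of 13 CG dinucleotides (range 2 to 35), against a median of 6 for all windows. Hoxa5 held 28 CG dinucleotides, Hoxa3 18, Hoxb4 14 and Hoxa9 3, so the windows printed above span most of that range. A match here is a description of the letters and no evidence of binding.

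The broadest contrast was between steady-state HSC and the pluripotent cells, and it divided the clusters. All 6 steady-state HSC arrays lay above all 6 iPSC and ESC arrays for 10 of the 33 Hox genes, lay below them for 5 and overlapped them for 18. Over all 18193 genes, the shares that did so were 24.9% higher and 32.2% lower. Cluster A had 5 of 9 genes higher and 0 lower, and cluster B had 5 of 9 higher and 1 lower. Cluster C had 0 of 7 higher and 2 lower, and cluster D had 0 of 8 higher and 2 lower. By position, 4 of 10 anterior genes (numbers 1 to 4) were higher in HSC, as were 4 of 9 central genes (5 to 8) and 2 of 14 posterior genes (9 to 13). The 10 genes higher in HSC were Hoxa2, Hoxa5, Hoxa7, Hoxa9, Hoxa10, Hoxb2, Hoxb3, Hoxb4, Hoxb5 and Hoxb6. Intensities of different probe sets are not comparable as levels, so no order of genes is drawn from them.

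**Figure D1:**
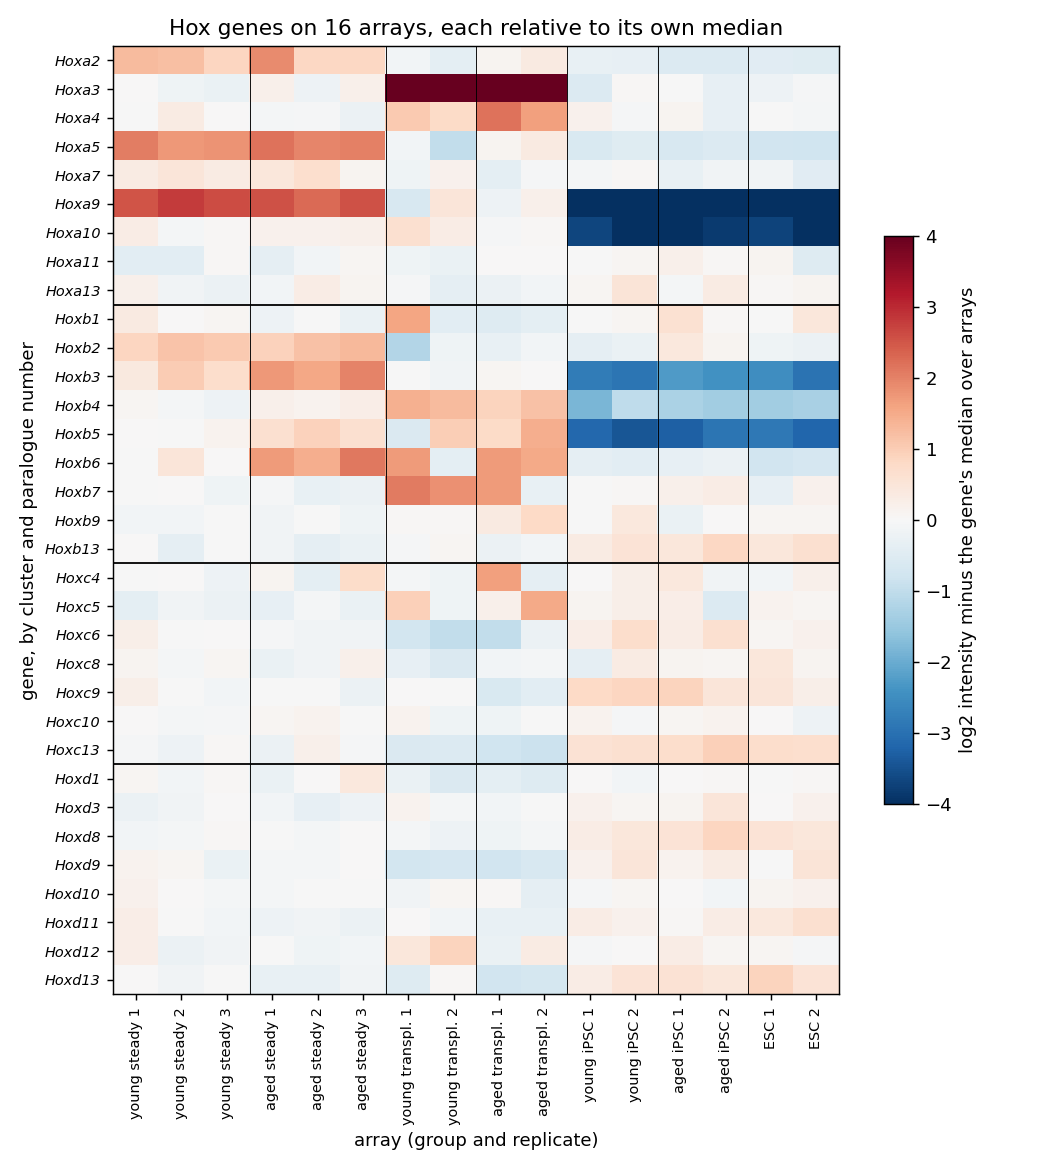
Log2 intensity of each of the 33 Hox genes (rows, by cluster and number) on each of the 16 arrays (columns, by group), shown as the difference from that gene's median over the arrays; colours stop at 4 in either direction. Hoxa9, Hoxa10, Hoxb3, Hoxb4 and Hoxb5 are blue on the 6 iPSC and ESC arrays, Hoxa3 is dark red on the 4 transplanted arrays, and clusters C and D stay pale.

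Hoxa9, which promotes self-renewal of blood progenitors and is a common target in leukaemia, showed the widest gap. Its log2 intensity was 12.44, 12.74 and 12.55 on the young and 12.49, 12.20 and 12.49 on the aged steady-state arrays. On the iPSC arrays it was 4.39 and 3.72 (young origin) and 4.10 and 4.46 (aged origin), and on the ESC arrays 4.00 and 4.45. The pluripotent values all lie below the 25th percentile of genes on their arrays, 4.74 to 4.85, so they cannot be told from background. Hoxa10, its neighbour in the cluster, read 7.98, 7.62 and 7.72 (young) and 7.86, 7.87 and 7.90 (aged) in steady-state HSC, against 3.35 to 4.01 on the 6 iPSC and ESC arrays. With these chosen probe sets, steady-state HSC and pluripotent arrays did not overlap for either gene. The further Hoxa10 probe set read 3.83 to 4.00 in steady-state HSC and 3.59 to 4.00 in iPSC and ESC, which overlap. These values all lie below the 25th percentile of genes on their arrays. The further Hoxa9 probe set, given below, overlapped as well.

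Tested over all 16 arrays with limma, 9 of 19 Hox genes that passed the filter on dim genes were lower in iPSC than in steady-state HSC and 5 were higher, at a Benjamini-Hochberg adjusted p under 0.05. Over all 13645 genes tested, 34.7% were lower, 41.8% higher and 76.4% called in either direction, so a call by itself was common here. The median difference was -0.19 for the Hox genes and 0.17 for all genes tested. It was -1.52 for the 6 tested genes of cluster A and -1.29 for the 7 of cluster B. It was 0.37 for the 4 of cluster C and 0.47 for the 2 of cluster D. Fewer cells that express a gene and less RNA per cell cannot be told apart in these bulk samples.

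The fall was largest for Hoxa9, at -8.32 on the log2 scale (SE 0.21, adjusted p = 1.7e-13), and reached -4.15 (SE 0.15, adjusted p = 5.8e-12) for Hoxa10. With probe sets averaged the values were -4.21 and -2.13. Hoxb3, an anterior gene that patterns the hindbrain and acts with Hoxb4 in blood stem cells, fell by 3.83 (SE 0.14, adjusted p = 9.3e-12), and Hoxb5, a marker of long-term HSC in mouse marrow, fell by 3.59 (SE 0.24, adjusted p = 5.4e-09). Hoxb3 gave -2.14 with probe sets averaged. Hoxa9, Hoxa10, Hoxb5 and Hoxb6 all read below the 25th percentile of genes in iPSC, so the sizes of their falls depend on that floor. Hoxa5, a regulator of lung and axial skeleton development, fell by 2.52. Its steady-state values were 9.92, 9.60 and 9.68 (young) and 10.05, 9.83 and 9.90 (aged), against 7.08 to 7.40 on the iPSC and ESC arrays. Hoxb4, whose overexpression expands HSC, fell by 1.44, from 7.64, 7.45 and 7.34 (young) and 7.74, 7.68 and 7.80 (aged) to 5.73 to 6.52 on the pluripotent arrays.

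Smaller falls were measured for Hoxb6 (-1.29), Hoxb2 (-1.09) and Hoxa7 (-0.51). Hoxb2, which acts in hindbrain segments, read 5.996, 6.28 and 6.16 (young) and 6.04, 6.31 and 6.41 (aged) in steady-state HSC and 4.76 to 5.56 on the pluripotent arrays. Hoxa7, a target of MLL fusion proteins in leukaemia, read 7.59, 7.76 and 7.60 (young) and 7.74, 7.94 and 7.37 (aged), against 6.83 to 7.32. Its call was lost with quantile normalisation (-0.20, adjusted p = 0.196). Hoxa2, which patterns the branchial arches, did not pass the dim filter over 16 arrays; it read 5.20 to 6.25 in steady-state HSC and 3.83 to 4.08 in the pluripotent cells.

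The 5 genes higher in iPSC belonged to the posterior part of the clusters except for Hoxc6, and their differences were small. Hoxc9 differed by 0.79 (SE 0.12), Hoxb13 by 0.73 (SE 0.12), Hoxd13 by 0.62 (SE 0.13), Hoxc6 by 0.49 (SE 0.15) and Hoxd9 by 0.32 (SE 0.13). Steady-state values of Hoxb13 (4.45 to 4.83) and Hoxd13 (4.44 to 4.78) lay near the 25th percentile of genes on their arrays. That percentile was 4.52 to 4.64 there and 4.78 to 4.85 in iPSC. The further Hoxd13 probe set overlapped, at 4.20 to 4.96 in steady-state HSC and 4.79 to 5.18 in iPSC. The Hoxd13 call was lost with a pseudocount of 64. Hoxc9, a thoracic paralogue of Hoxa9, read 6.79, 6.54 and 6.46 (young) and 6.55, 6.53 and 6.33 (aged) in steady-state HSC, against 7.37 and 7.42 (young origin) and 7.46 and 7.04 (aged origin) in iPSC. Hoxd9, a further paralogue, read 5.62 to 6.02 in steady-state HSC and 6.05 to 6.38 in iPSC, and its ESC values of 5.89 and 6.40 overlapped those of HSC. Beside these small differences, 3 of 5 tested fibroblast and feeder markers were higher in iPSC (41.8% of all genes were). Their summed intensity, over 10 measured markers, was 481.3 to 830.0 in iPSC, 756.5 to 773.1 in ESC and 356.0 to 392.1 in steady-state HSC; its part in the result was not tested. The count of 5 higher fell to 2 without young-origin iPSC replicate 2, to 3 without aged-origin iPSC replicate 1 and to 2 without aged-origin iPSC replicate 2. Hoxc6 was lost without the first (adjusted p = 0.0696) or the last of these (0.0598) in limma, and Hoxd9 without any of the 3 or of 3 steady-state arrays (young replicate 3, aged replicates 1 and 2), with adjusted p from 0.0510 to 0.168.

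Other probe sets of the same genes did not always follow. The further Hoxa9 probe set read 7.10 to 7.76 in steady-state HSC and 7.26 to 7.48 in iPSC and ESC, a difference of -0.11 (SE 0.15). Hoxa5 was lower in iPSC by either probe set (-2.52 and -3.39), as were Hoxb3 (-3.83 and -0.46) and Hoxb4 (-1.44 and -0.68). Hoxa3, not called by its chosen probe set (-0.19), gave -1.48 with another of its 4 probe sets. A further Hoxa3 probe set read 4.20 to 5.05 in steady-state HSC and 3.20 to 3.73 in iPSC. The last overlapped, at 3.90 to 4.27 and 4.08 to 4.32. With probe sets averaged, Hoxa3 was called lower in iPSC. Hoxc6 gave 0.64 and -0.20 with its further probe sets, and its chosen one carries the suffix x, which the manufacturer gives where some probes match other transcripts. When every probe set was tested as a feature of its own, 14 of 33 Hox probe sets were lower in iPSC and 9 higher, with 67.4% of all probe sets called.

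**Figure D2:**
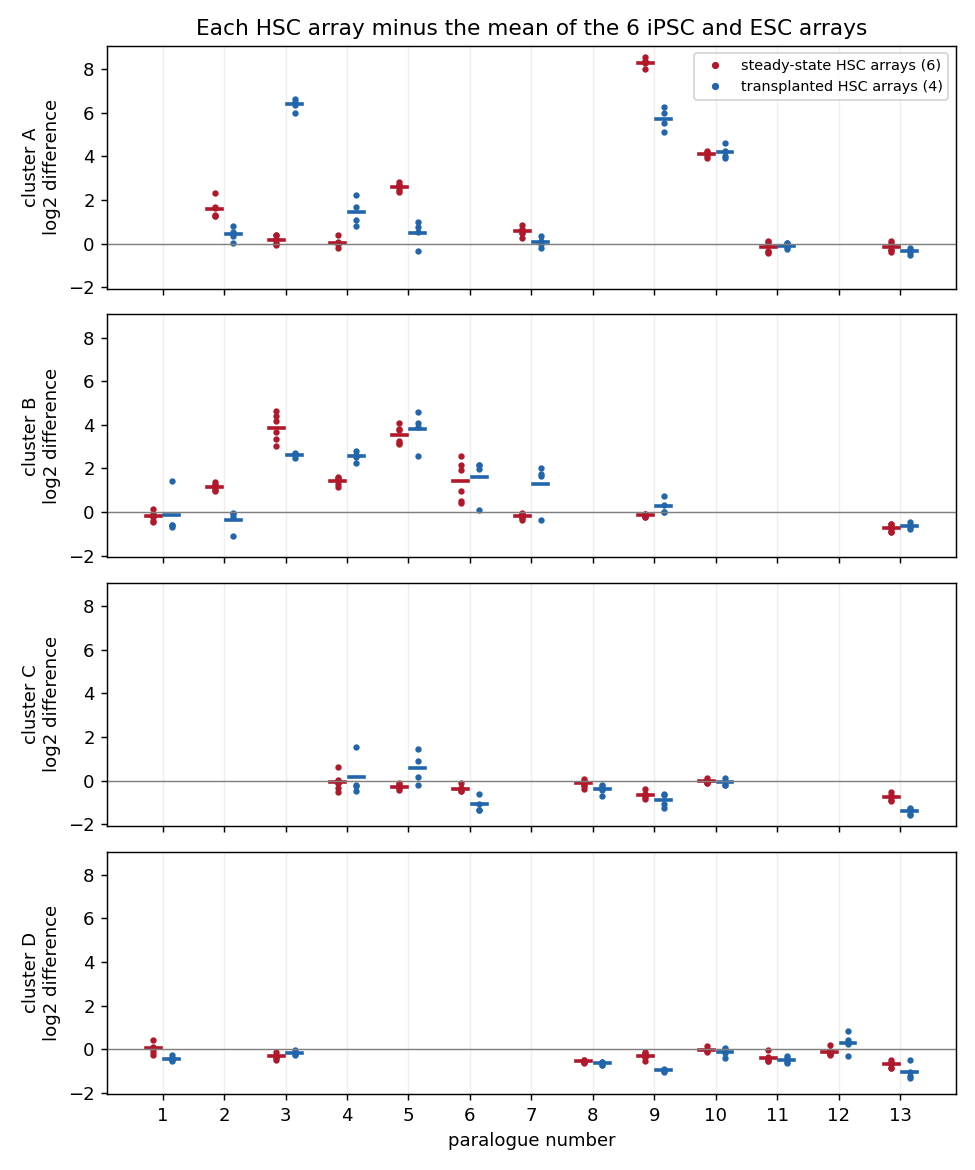
Log2 intensity of each steady-state (red) and transplanted (blue) HSC array minus the mean of the 6 iPSC and ESC arrays, for each measured Hox gene, by cluster (panels) and gene number (x axis); bars are means over arrays. Positive values gather at numbers 2 to 10 of cluster A and 2 to 7 of cluster B, while the group means of clusters C and D lie near or below 0, with single transplanted arrays of Hoxc4 and Hoxc5 above 1.

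In steady-state HSC, 1 of 20 tested Hox genes, Hoxb3, was higher in aged than in young mice and 0 were lower; over all 13645 genes 0.96% were higher and 1.18% called. Hoxb3 read 7.99, 8.60 and 8.28 on the young arrays and 9.32, 9.13 and 9.56 on the aged arrays, which do not overlap. The difference was 1.05 (SE 0.19, 2.07-fold, limma adjusted p = 0.0285). Its further probe set read 6.58 to 6.77 in young and 6.56 to 6.85 in aged HSC, a difference of 0.05 (SE 0.26). With the probe sets of a gene averaged, Hoxb3 differed by 0.55 (limma adjusted p = 0.265). With every probe set tested as a feature of its own, limma called 0 of 33 Hox probe sets higher and 0 lower. It called 0.601% of all probe sets. In the fit of genes, the Hoxb3 call held without young replicate 2 and was lost without any of the other steady-state arrays. The limma adjusted p was 0.129 without young replicate 1, 0.155 without young replicate 3, 0.133 without aged replicate 1, 0.0727 without aged replicate 2 and 0.160 without aged replicate 3, while the difference stayed between 0.90 and 1.20.

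The neighbouring genes of cluster B did not pass the test with the transplanted arrays in the fit. Hoxb6, expressed in early blood progenitors, read 4.77, 5.29 and 4.83 in young and 6.51, 6.25 and 6.92 in aged steady-state HSC, a difference of 1.60 (SE 0.43, limma adjusted p = 0.199). Hoxb5 read 7.46, 7.42 and 7.57 in young and 8.09, 8.37 and 8.09 in aged HSC, a difference of 0.70 (SE 0.34, adjusted p = 0.913). Hoxb4 read 7.34 to 7.64 in young and 7.68 to 7.80 in aged HSC, a difference of 0.26, and its further probe set showed no difference in the mean (SE 0.33). None of these arrays overlapped between ages for the chosen probe sets. Groups that do not overlap were found for 5 of the 20 Hox genes (Hoxb3, Hoxb4, Hoxb5 and Hoxb6 higher, Hoxc6 lower) and for 18.2% of all genes tested. The spread used in this fit includes the transplanted arrays, where Hoxb5 and Hoxb6 varied widely. Fitted on the 6 steady-state arrays alone, Hoxb3 (adjusted p = 0.0153), Hoxb5 (0.0209) and Hoxb6 (0.00303) were all called by limma. Fitted on all 16 arrays, Hoxb3 (0.00529) and Hoxb6 (0.0410) were called.

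Cluster A showed no call with age in steady-state HSC. Differences of its 7 tested genes ran from -0.19 for Hoxa9 to 0.20 for Hoxa3. The 95% interval was -0.78 to 0.41 for Hoxa9 and -0.26 to 0.47 for Hoxa10. The 20 Hox genes had a median difference of 0.09, against -0.02 for all genes, and 2 of them had an unadjusted p under 0.05. Markers of committed blood progenitors also differed between these groups. Of 7 tested, 1 was lower in aged HSC (0.22% of all genes were). The summed intensity of 8 measured markers was 737.1 to 1276 in young and 559.3 to 657.2 in aged HSC. Its part in the Hoxb values was not tested.

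**Figure D3:**
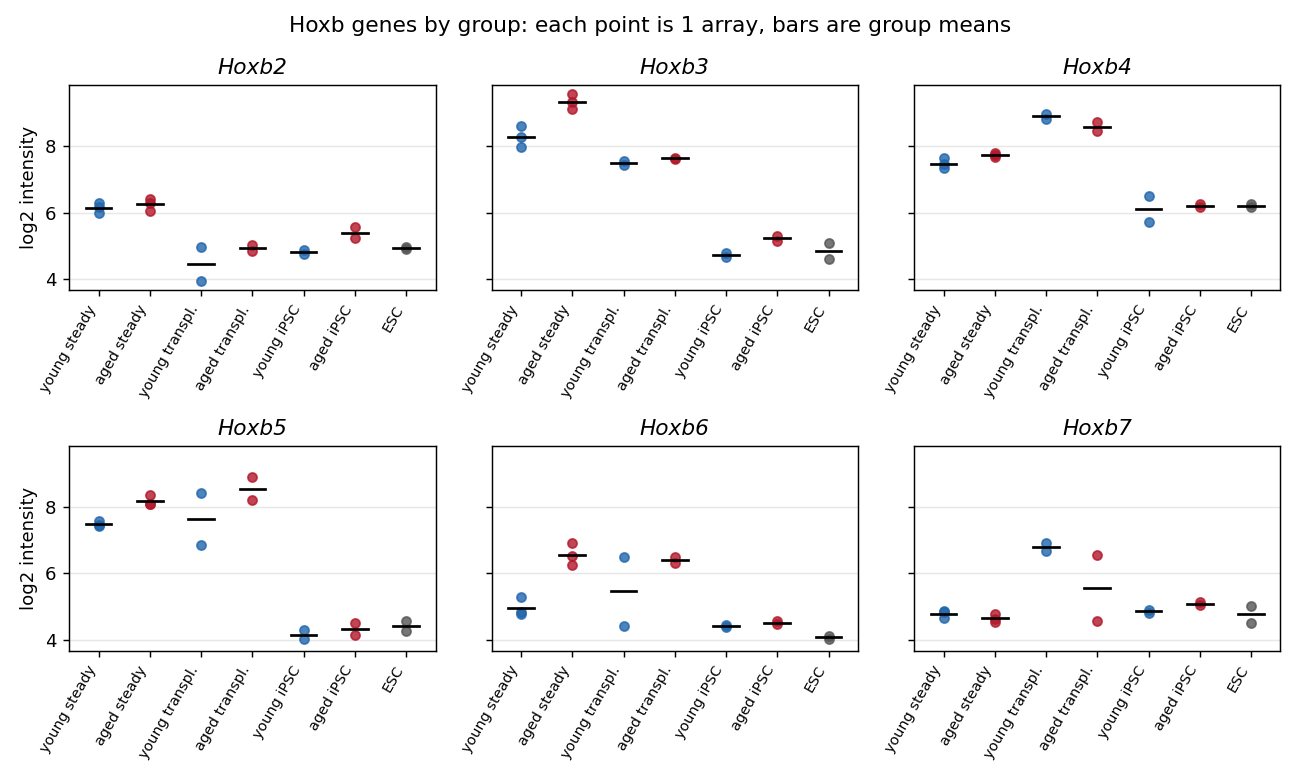
Log2 intensity of Hoxb2 to Hoxb7 in each of the 7 groups; each point is 1 array, bars are group means, blue is young, red is aged and grey is ESC. Aged steady-state arrays lie above young ones for Hoxb3, Hoxb4, Hoxb5 and Hoxb6, and the transplanted arrays of a group are far apart for Hoxb6 and Hoxb7.

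In transplanted HSC, 0 of 20 Hox genes were called between recipients of aged and of young marrow by limma, and 5 had an unadjusted p under 0.05; 1.35% of all genes were called. Arrays of the groups did not overlap for 10 of the 20 Hox genes and for 31.7% of all genes tested, with 2 arrays a group. Hoxb3 read 7.56 and 7.44 with young marrow and 7.65 and 7.61 with aged marrow, a difference of 0.13 (95% interval -0.39 to 0.66). The difference between the age effects in the transplanted and the steady-state setting was -0.91 for Hoxb3 (SE 0.31), which did not pass (limma adjusted p = 0.350). That test called 0 of 20 Hox genes, with 3 at an unadjusted p under 0.05, and 0.125% of all genes. The age effect of Hoxb3 is therefore not shown to differ between the settings.

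Single arrays decided several values in the transplanted groups. Hoxb6 read 6.50 and 4.42 with young marrow and 6.50 and 6.32 with aged marrow, so that young replicate 2 alone was low. Hoxb7, a central gene of the cluster, read 6.93 and 6.67 with young marrow and 6.56 and 4.56 with aged marrow, so that aged replicate 2 alone was low. Without aged replicate 1, Hoxb7 was called lower in recipients of aged marrow (-2.24, limma adjusted p = 0.00575), and so was its difference of age effects (-2.10, adjusted p = 0.0327). Hoxb5 read 6.87 and 8.41 with young and 8.20 and 8.90 with aged marrow. Hoxa5 and Hoxb6 were called higher without young replicate 1, and Hoxb2 and Hoxb5 without young replicate 2; without that last array the difference of age effects of Hoxb6 was called lower. Each of these calls rests on a group of 1 array, which the fit assumes to vary like the other groups. The summed intensity of committed blood markers was 462.8 to 557.6 with young and 267.5 to 344.9 with aged marrow; its part in these values was not tested.

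Between transplanted and steady-state HSC, ages averaged, 5 of 20 tested Hox genes were higher and 8 lower; over all genes 19.8% were higher, 50.1% lower and 69.9% called. The median difference was 0.09 for the Hox genes and -0.46 for all genes tested. Arrays of the settings did not overlap for 10 of the 20 Hox genes and for 54.8% of all genes tested. With each array centred on its median, 3 Hox genes were higher (Hoxa3, Hoxb4 and Hoxb7) and 9 lower. HSC markers fell as well, 8 of 8 tested, with a median of -1.71. Transplantation cannot be told apart from whatever else differed in these 4 arrays, which include the shifted actin control described above.

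Hoxa3, which is required for the thymus and parathyroid, was the gene with the largest rise. It read 5.73, 5.52 and 5.44 (young) and 5.91, 5.49 and 5.90 (aged) in steady-state HSC, and 12.15 and 11.51 (young marrow) and 11.87 and 12.01 (aged marrow) in transplanted HSC. The arrays do not overlap, and the difference was 6.22 (SE 0.16, 74.6-fold, limma adjusted p = 6.1e-09). The iPSC and ESC arrays read 5.16 to 5.73, near the steady-state values. The 3 further Hoxa3 probe sets differed by 2.54, 1.35 and 0.22, all in the same direction, with adjusted p of 2.95e-05, 0.000166 and 0.348 when every probe set was tested. Their average with the chosen one gave 2.58. In RefSeq the annotated span of Hoxa3 holds those of Hoxa4, Hoxa5 and Hoxa6. Whether transcripts of these genes share sequence was not tested. Of the enclosed genes, Hoxa4 did not pass the dim filter and read 3.11 to 3.67 in steady-state HSC and 4.36, 4.10, 5.51 and 4.97 in transplanted HSC. Hoxa5 went the other way.

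Hoxa5 read 7.77 and 6.89 (young marrow) and 7.97 and 8.23 (aged marrow) in transplanted HSC, below every steady-state array, and the difference was -2.12 (SE 0.18, limma adjusted p = 2.94e-06). Its further probe set gave -1.09, with the arrays again apart. The chosen Hoxa5 probe set also carries the suffix x. Hoxa9 read 9.31 and 10.42 (young marrow) and 9.72 and 10.15 (aged marrow), a difference of -2.58 (SE 0.21, adjusted p = 2.36e-06). Here the further probe set went the other way: it read 7.10 to 7.76 in steady-state and 8.72 to 9.42 in transplanted HSC, a difference of 1.46. The direction for Hoxa9 therefore depends on the probe set, and their average gave -0.56. Hoxa10 did not pass, with 7.98 and 8.32 in recipients of young marrow and 7.66 and 7.74 in recipients of aged marrow.

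**Figure D4:**
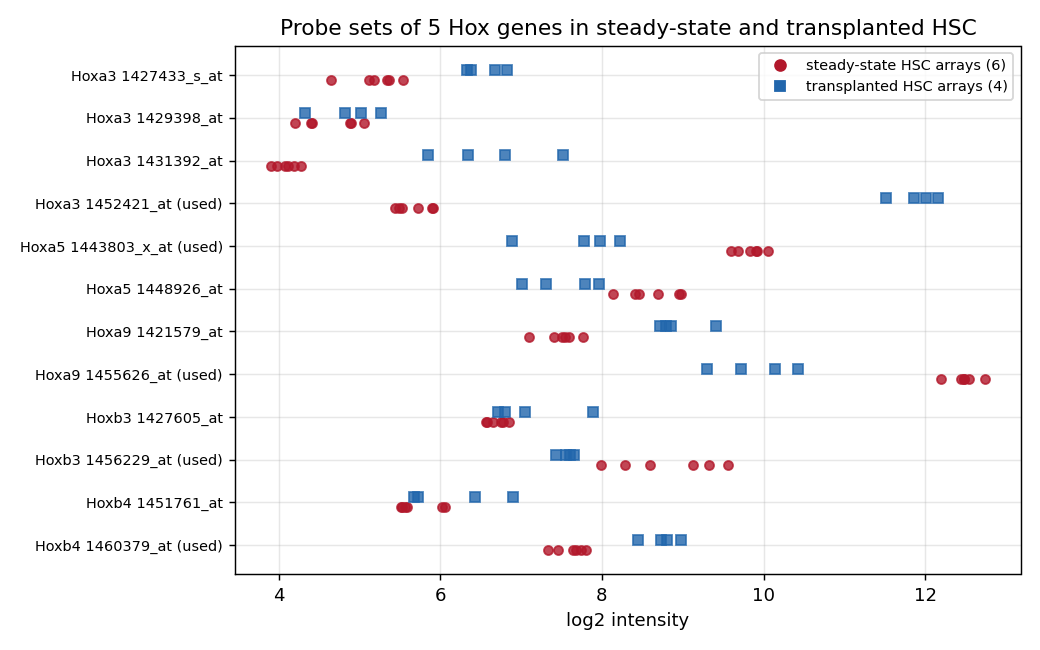
Log2 intensity of every probe set of Hoxa3, Hoxa5, Hoxa9, Hoxb3 and Hoxb4 on the 6 steady-state (red circles) and 4 transplanted (blue squares) HSC arrays. Of the 4 Hoxa3 probe sets, 3 lie further right on every transplanted array; both of Hoxa5 lie further left, the Hoxa9 ones lie apart in opposite directions, and the further ones of Hoxb3 and Hoxb4 overlap.

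Cluster B divided between genes that rose and genes that fell in transplanted HSC. Hoxb4 read 8.98 and 8.81 (young marrow) and 8.45 and 8.73 (aged marrow), above every steady-state array, and rose by 1.13 (SE 0.13, limma adjusted p = 1.93e-05); its further probe set differed by 0.47. Hoxb7 rose by 1.46 (SE 0.31), although aged replicate 2, at 4.56, lay within the steady-state range of 4.55 to 4.86; without aged replicate 1 the value was 0.96. Hoxb9, a posterior gene, rose by 0.41 (SE 0.13). Hoxb9 read 4.51 to 4.67 in steady-state and 4.76, 4.74, 5.07 and 5.48 in transplanted HSC, and its call was lost when arrays were centred on their medians (0.21, adjusted p = 0.168) or quantile normalised (0.25, 0.0951). Hoxb2 fell by 1.51 (SE 0.19), to 3.95 and 4.96 (young marrow) and 4.84 and 5.02 (aged marrow). Hoxb3 fell by 1.25 (SE 0.15, adjusted p = 3.83e-05), while its further probe set differed by 0.42 in the other direction and their average gave -0.42. In RefSeq the span of Hoxb3 holds Hoxb4. Hoxb5, Hoxb6 and Hoxb13 were not called.

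In clusters C and D, 1 gene rose and 2 fell. Hoxc5 rose by 0.86 (SE 0.27), reading 5.18 to 5.49 in steady-state and 6.51, 5.40, 5.77 and 7.07 in transplanted HSC. Its further probe sets, too dim to be tested, differed by 0.92 and -0.14. Its call was lost without young replicate 1 (limma adjusted p = 0.0624) or aged replicate 2 (0.53, adjusted p = 0.0710) of the transplanted arrays, and with quantile normalisation (0.0515) or median centring (0.0510). Hoxc6 fell by 0.72 (SE 0.16), reading 5.20 to 5.56 in steady-state and 4.61, 4.34, 4.35 and 5.10 in transplanted HSC; its further probe sets gave -0.74 and -0.02. Hoxd9 fell by 0.66 (SE 0.13), reading 5.62 to 6.02 and then 5.16, 5.22, 5.14 and 5.25. In cluster A, Hoxa2 fell by 1.16 (SE 0.22), to 4.26, 3.98, 4.48 and 4.72. Hoxa7 fell by 0.50 (SE 0.15), reading 7.10, 7.43, 6.89 and 7.24, and was lost without transplanted aged replicate 1 (adjusted p = 0.0533). Hoxc4 was not called; it read 4.34 to 5.48 in steady-state HSC and 4.65, 4.57, 6.39 and 4.37 in transplanted HSC, where aged replicate 1 alone was high. Hoxc9 was not called either, at 6.56, 6.54, 5.93 and 6.13.

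Set against the pluripotent cells, the 4 transplanted arrays lay above all 6 iPSC and ESC arrays for 7 of 33 Hox genes and below them for 9. The shares over all 18193 genes were 19.5% and 41.6%. Cluster A gave 4 higher and 0 lower, cluster B 3 and 1, cluster C 0 and 3, and cluster D 0 and 5. The higher genes were thus again in clusters A and B. With the chosen probe sets of cluster A, Hoxa3 and Hoxa4 stood above the pluripotent arrays in transplanted but not in steady-state HSC. Hoxa2, Hoxa5 and Hoxa7 did the reverse, and Hoxa9 and Hoxa10 stood above them in both. These contrasts depend on the probe set. The further Hoxa5 probe set stood above the pluripotent arrays in both settings. So did the further Hoxa3 probe sets, except that the set reading 3.90 to 4.27 in steady-state HSC overlapped there. The further probe sets of Hoxa9 and Hoxa10 overlapped in steady-state HSC, as given above.

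Among the pluripotent cells, no Hox difference passed the test. Between iPSC of aged and of young haematopoietic origin, 0 of 17 tested Hox genes were called by limma and 2 had an unadjusted p under 0.05; 0.00733% of all genes were called. The groups did not overlap for 6 of 17 Hox genes, against 33.4% of all genes tested. Both genes with a low unadjusted p were in cluster B. Hoxb2 read 4.76 and 4.87 in young-origin and 5.56 and 5.24 in aged-origin iPSC, a difference of 0.59 (95% interval 0.27 to 0.90, adjusted p = 0.976). Hoxb3 read 4.80 and 4.67 in young-origin and 5.31 and 5.16 in aged-origin iPSC, a difference of 0.50 (0.12 to 0.87, adjusted p = 0.976), with ESC at 5.09 and 4.62. The further Hoxb3 probe set read 6.30 and 6.16 in young-origin and 6.17 and 6.34 in aged-origin iPSC, which overlap. The young-origin values of Hoxb2 and of the chosen Hoxb3 probe set lie near the 25th percentile of genes on their arrays, 4.78 and 4.85. Hoxb5 and Hoxb6, which stood higher in aged steady-state HSC, did not pass the filter here and read 4.03 to 4.57 and 4.04 to 4.56 on the 6 arrays.

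Between iPSC and ESC, 0 of 17 Hox genes were called by limma, 1 had an unadjusted p under 0.05 and 0.11% of all genes were called. That gene was Hoxc9, which read 7.37, 7.42, 7.46 and 7.04 in iPSC and 7.05 and 6.79 in ESC, a difference of 0.40 (95% interval 0.08 to 0.72, adjusted p = 0.310). Groups that do not overlap were found for 2 of 17 Hox genes and 23.8% of all genes. Of the genes that fell from HSC to iPSC, Hoxb3 differed by 0.13 (-0.19 to 0.46), Hoxb4 by -0.04 (-0.47 to 0.39) and Hoxa5 by 0.21 (-0.03 to 0.46). Hoxa9, Hoxa10, Hoxb5 and Hoxb6 did not pass the filter there. The further Hoxb3 probe set read 6.16 to 6.34 in iPSC and 6.12 and 5.87 in ESC. That of Hoxb4 read 4.82 to 5.35 in iPSC and 4.59 and 4.74 in ESC, while that of Hoxa5 overlapped. With every probe set tested as a feature of its own, limma called 0 of 29 Hox probe sets higher and 0 lower in iPSC, and 0.0947% of all probe sets.

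Hox proteins bind DNA with TALE-class cofactors, of which 8 were measured and 6 tested. In iPSC against steady-state HSC, 3 of 6 were lower and 3 higher, beside 34.7% lower and 41.8% higher among all genes. Meis1, the partner of Hoxa9 in blood stem cells and leukaemia, was 11.82 ± 0.44 (SD, n = 3) in young and 11.97 ± 0.14 (n = 3) in aged steady-state HSC. It was 3.77 ± 0.26 (n = 2) and 3.54 ± 0.36 (n = 2) in young- and aged-origin iPSC and 3.47 ± 0.06 (n = 2) in ESC, a fall from HSC to iPSC of 8.24 on the log2 scale (SE 0.17, limma adjusted p = 2.5e-14). The pluripotent values lie below the 25th percentile of genes, so this size depends on that floor, and with probe sets averaged it was -5.27. Pbx2 fell by 1.82 and Pbx3 by 1.31, while Meis3, Pknox1 and Pbx4 were higher by 0.72, 0.77 and 0.35. With age in steady-state HSC, 1 of 6 cofactors was higher (0.96% of all genes were), namely Pbx3 by 1.16 (SE 0.23, limma adjusted p = 0.0457). That call was lost without any single steady-state array (adjusted p 0.134 to 0.213), while Meis1 differed by 0.15 (adjusted p = 1.00).

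In transplanted against steady-state HSC, 2 of 6 tested cofactors were higher and 3 lower, beside 19.8% higher and 50.1% lower among all genes. Meis1 fell by 2.12 (SE 0.18) with its chosen probe set, to 9.70 ± 0.25 (n = 2) and 9.86 ± 0.08 (n = 2) in recipients of young and aged marrow. With all its probe sets averaged the value was 0.26 in the other direction (limma adjusted p = 0.325), as probe sets of a gene also disagreed for Hoxa9. Pbx3 fell by 3.22 (1.12 with probe sets averaged), and Pbx4 and Pbx2 rose by 2.38 and 1.55.

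Of 14 tested genes that activate or maintain Hox transcription, 8 were higher and 5 lower in iPSC than in steady-state HSC (41.8% and 34.7% of all genes). Kmt2a, the MLL methyltransferase, fell by 1.11 (SE 0.18), from 9.30 ± 0.37 (n = 3) in young HSC to 8.14 ± 0.16 (n = 2) in young-origin iPSC. Mllt3, a partner of the elongation machinery, fell by 5.88 (SE 0.11), and the acetyltransferase Kat6a by 1.97 (0.59 with probe sets averaged). Dot1l, the methyltransferase recruited with Mllt3, was higher by 1.28, and Cdx2, an activator of posterior Hox genes in the embryo, by 0.66. With age, 0 of 14 were called in steady-state and 0 in transplanted HSC by limma, with 0 and 4 at an unadjusted p under 0.05; Kmt2a differed by -0.02 and Cdx2 by -0.10 in steady-state HSC. In transplanted HSC 9 of 14 were lower and 2 higher than in steady-state HSC, beside 50.1% lower and 19.8% higher among all genes. Mllt3 fell by 2.79 there with its chosen probe set and rose by 0.30 with its probe sets averaged.

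All 12 listed Polycomb genes, whose products keep Hox clusters silent, were tested, and in iPSC 6 were higher and 4 lower than in steady-state HSC (41.8% and 34.7% of all genes). Jarid2 was higher by 2.84 (SE 0.16) and Phc1 by 2.35 (SE 0.20), and Bmi1, which maintains HSC, was lower by 4.21 on the log2 scale (SE 0.13). With age in steady-state HSC, 0 of 12 were called by limma, with 3 at an unadjusted p under 0.05. In recipients of aged against young marrow 2 of 12 were lower (0.799% of all genes were), Eed by 0.97 (adjusted p = 0.0321) and Cbx2 by 1.16 (adjusted p = 0.0416). Without transplanted aged replicate 1 Cbx2 was lost (0.0808), and without aged replicate 2 so were Eed (0.0795) and Cbx2 (0.0810). With probe sets averaged Eed gave -0.36 (0.442) and Cbx2 -0.89 (0.0557), neither called by limma. Between transplanted and steady-state HSC 9 of 12 were lower and 2 higher (50.1% and 19.8% of all genes). The median was -1.48 against -0.46 for all genes, with the chosen probe sets. With probe sets averaged, Rnf2 went from -3.52 to -0.23 and lost its call, and Eed went from -2.05 to -1.18.

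Genes that lie next to the clusters were called in both directions. Of 14 tested in iPSC against steady-state HSC, 5 were higher and 6 lower (41.8% and 34.7% of all genes). Skap2, beside cluster A, fell by 2.60 (SE 0.12) and Snx10, on the same side, by 1.47. Calcoco2, near cluster B, was higher by 5.85 (SE 0.12), a size that depends on the floor, as its steady-state means of 2.79 and 2.66 did not pass the dim filter among HSC. Evx1 and Evx2, homeobox genes at the ends of clusters A and D, were higher by 0.81 and 0.84. With age 0 of 14 were called in either HSC setting by limma, with 0 and 1 at an unadjusted p under 0.05. In cluster B, Hoxb3 was higher in aged steady-state HSC. The tested genes next to that cluster differed there by 0.48 for Skap1, 0.16 for Snx11 and -0.05 for Ttll6 (limma adjusted p = 0.99996 for each). Of the ParaHox genes Gsx1, Gsx2 and Pdx1, relatives of the Hox genes outside the clusters, 2 were tested, and 1 was higher in iPSC than in steady-state HSC and 0 were lower.

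The clusters also differed in how many genes stood clear of the low end of the scale. In cluster D, 2 of 8 genes lay above the 25th percentile of all genes on every array of young steady-state HSC, 1 of 8 in aged steady-state and in either transplanted group, and 2 of 8 in each pluripotent group. In cluster C the counts were 3 of 7 in young and in aged steady-state HSC, 3 and 2 in recipients of young and aged marrow, and 4 in each pluripotent group. In cluster A the counts were 7 of 9 in young and in aged steady-state HSC, 6 and 8 in recipients of young and aged marrow, 4 in either iPSC group and 3 in ESC. Genes at the low end in all groups included Hoxc8, Hoxc10, Hoxd1 and Hoxd10, with group means of 3.07 to 3.81, 3.45 to 3.65, 2.93 to 3.44 and 2.80 to 3.10. The table holds no detection calls, so these values do not show whether the genes were off.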

How the data were processed

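Intensity values for 45101 probe sets on 16 single-channel Affymetrix arrays were used as the authors deposited them. How the authors summarised and scaled them is not given in the labels or headers; per the labels' protocols, a QIAGEN microRNeasy kit gave the RNA, hybridised as biotinylated cRNA. Intensities were put on the log2 scale with no pseudocount. A probe annotation table named the genes, the 64 control probe sets were left out of tests, and a gene was represented by its probe set of highest mean over the 16 arrays.

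Differences were fitted with limma 3.58.1 in R 4.3.3 (lmFit, eBayes), with 1 mean per group and no covariate. The 10 HSC arrays were fitted together (6 residual degrees of freedom), as were the 6 iPSC and ESC arrays (3) and all 16 arrays (9). Each fit tested the 13645 of 18193 genes whose mean was above its 25th percentile. Calls were made at p under 0.05 after Benjamini-Hochberg adjustment over all genes tested, and every adjusted p is from limma. For arrays, 2 or 3 per group limits the precision. The fit was tested on simulated data.

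The members, gene lists and tests were chosen with earlier results of these data known. Array values are given for Hox genes called within HSC or within pluripotent cells, for the 8 of highest mean in steady-state HSC and for paralogue groups 4 and 9. Of a list, up to 4 genes of smallest p are named in a comparison, plus Meis1, Cdx2 and Kmt2a; other genes were chosen after their values were seen. Alternatives were quantile normalisation, median centring, no filter or the 50th percentile, averaged probe sets, a pseudocount of 64, an intensity trend with a robust prior, the replicate number as a block, other sets of arrays in the fit, and each array left out.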

Additional observations from a re-analysis of the deposited data

How the results depend on the processing

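Of 855 recomputed values of single Hox genes, 821 kept their direction and their side of the threshold, 26 lost a call, 6 gained one and 2 changed sign. The sign changes were both in uncalled genes: Hoxa3 with age in steady-state HSC was -0.055 with probe sets averaged, and Hoxa11 in iPSC against ESC was -0.018 without ESC replicate 2 and 0.60 without ESC replicate 1. With age in steady-state HSC, where Hoxb3 was called, higher Hox genes numbered 0 with probe sets averaged and 0 with the replicate block. They numbered 2 with all 16 arrays in the fit, 3 with the 6 steady-state arrays alone and 0 to 1 with an array left out. With every probe set tested as a feature of its own, 0 of 33 Hox probe sets were called higher there. The replicate numbers do not pair the samples: deviations of same-numbered arrays correlated at 0.15, -0.19 and 0.19 in the steady state, -0.16 after transplantation and -0.05 in iPSC. In the replicate block fit the limma adjusted p of Hoxb3 was 0.092, and counts in the other comparisons kept within 1.5 times. A crossed pairing of the transplanted arrays, chosen after seeing the data, called 0 Hox genes.

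With age in transplanted HSC, leaving out an array gave 0 to 2 higher and 0 to 1 lower, and the difference of age effects gave 0 to 1 lower. Between transplanted and steady-state HSC, the higher genes numbered 3 with quantile normalisation, 3 with median centring and 2 with the filter at the 50th percentile, where the lower ones numbered 4 and 9 Hox genes were left to test. In iPSC against steady-state HSC, the higher genes numbered 9 with no filter, 1 with the filter at the 50th percentile and 2 to 5 with an array left out.

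Values of genes from the fixed lists were recomputed after seeing the data: 723 of 771 kept direction and side, 36 lost a call, 1 gained one and 11 changed sign. With probe sets averaged, the changes from steady-state to transplanted HSC turned for Meis1 (0.26), Mllt3 (0.30), Aff1 (0.81) and Kmt2a (-0.034), Rnf2 turned in iPSC (0.086), and with age in steady-state HSC Meis1 gave -0.23 and Kmt2a 0.016. With a steady-state array left out, Kmt2a with age ran from -0.22 to 0.15 and turned without young replicate 2 (0.13), young replicate 3 (0.03) or aged replicate 2 (0.15). Meis1 ran from -0.11 to 0.28 and turned without young replicate 3. The cause of these changes was not tested. No gene's presence could be called, since the table gives signal with no measure of background.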

Other observations

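Paralogue group 9 has a measured member in each cluster, which allows its genes to be followed side by side within their own scales. From steady-state HSC to iPSC, Hoxa9 fell by 8.32 on the log2 scale, while Hoxc9 rose by 0.79 and Hoxd9 by 0.32. Hoxb9 read 4.51 to 4.67 in steady-state HSC and 4.44 to 5.13 in iPSC and did not pass the dim filter over all 16 arrays. From steady-state to transplanted HSC, Hoxb9 rose by 0.41, Hoxd9 fell by 0.66 and Hoxc9 was not called (-0.24, limma adjusted p = 0.113). The direction for Hoxa9 depended there on the probe set.

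Hoxb1, the most anterior gene of cluster B, read 5.20 on transplanted young replicate 1 and 3.11 to 3.22 on the other 3 transplanted arrays.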
